A study of Mus musculus with 12 samples.

Results

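Livers of male mice carrying homozygous floxed alleles of peroxisome proliferator-activated receptor gamma (PPARγ), the lipid-sensing nuclear receptor encoded by Pparg, were compared after 5 months on a fast-food diet (FFD) rich in saturated fat, cholesterol and sucrose, with fructose and glucose in the drinking water. The members of this comparison were 6 of the 12 liver RNA-seq libraries of the series, chosen by the genotype and time point in their labels: 3 labelled PPARG-KO and 3 labelled WT at 5 months. The KO-labelled mice had received, at 8 weeks of age, adeno-associated virus AAV8 carrying Cre recombinase under the thyroxine-binding globulin (TBG) promoter, which restricts deletion to hepatocytes. The WT-labelled littermates had received the same dose of AAV8-TBG-eGFP, so both groups shared the floxed alleles, the virus serotype and the FFD, and PPARγ of Kupffer cells, stellate cells and other liver cells was left intact by design. The question asked here was which liver programmes other than sterol synthesis and inflammation separated the genotypes at 5 months: the circadian clock, glucocorticoid targets, translation, xenobiotic metabolism, sex-biased and zonated genes, nutrient metabolism and markers of the liver's cell types.

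As background, the liver clock is a feedback loop in which CLOCK and BMAL1 drive the PER, CRY and REV-ERB repressors through E-box sequences, while glucocorticoids released daily from the adrenal gland act through their own receptor on genes that include Per1 and Fkbp5. Xenobiotic metabolism proceeds through cytochrome P450 (CYP) oxidation, conjugation and transport, and its genes are expressed mostly in hepatocytes around the central vein, many of them at levels that differ between male and female mice under pulsatile growth hormone. Messages for ribosomal proteins begin with a run of pyrimidines, the 5′ terminal oligopyrimidine (TOP) tract, and are known as a coordinately controlled group.

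The 6 libraries held between 16367775 and 22249141 gene-assigned reads, and the mitochondrial genome took 4.70 to 5.30% of them. Values below are CPM, counts scaled to the library's size by edgeR's trimmed mean of M-values (TMM), given in the order of replicates 1, 2 and 3, and log2 fold changes are PPARγ-KO over WT. They are levels of each gene's own reads and are not divided by gene length. Pparg itself, on chromosome 6, stood at 35.8, 40.4 and 36.2 against 84.6, 91.2 and 73.7 CPM in WT and KO-labelled libraries, so its counts were higher in every KO-labelled library (log2 fold change 1.15 ± 0.08 (SE), adjusted p = 2.6e-06, edgeR quasi-likelihood test with Benjamini-Hochberg adjustment). These counts cover the whole gene rather than the floxed exons and do not check the deletion, so the groups are named by their labels, KO-labelled and WT, and every direction below follows those labels. The PPARγ target genes Cfd, Cidea, Cidec and Plin4, described below, were lower in every KO-labelled than in any WT library. The labels do not say that the repeats came from separate mice, and the p-values then measure only the spread between these samples. WT replicates 2 and 3 lay closer to each other than any other pair of libraries within a group. Over the 5000 most abundant genes, the chi-square per gene between them was 3.6. It was 21.2 to 79.9 for the other 11 pairs within the 4 groups of the series, and pairs across groups were not compared. Sampling noise alone gives a value near 1. Whether the pair came from 1 mouse was not tested, and the value does not settle it. They were kept as labelled, and the counts of the main lists with this pair summed into 1 library are given beside the results.

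Across 14138 genes tested, 18.4% were called at an adjusted p under 0.05, with 8.9% higher and 9.51% lower in KO-labelled livers, and the 2 groups of libraries did not overlap for 35.2%. These shares are the background for every count that follows. With WT replicates 2 and 3 summed, 63.7% of the called genes were called again in the same direction, and 1161 of 2602 were called under all 14 alternative settings of the fit. A gene that a setting did not test counts there as not called. The median log2 fold change over all genes tested was -0.01 with TMM scaling and -0.07 when counts were scaled by library size alone, which gave 889 genes higher and 1894 lower in place of 1258 and 1344. In these whole-liver samples, fewer cells of a type and less RNA per cell cannot be told apart.

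**Figure D1:**
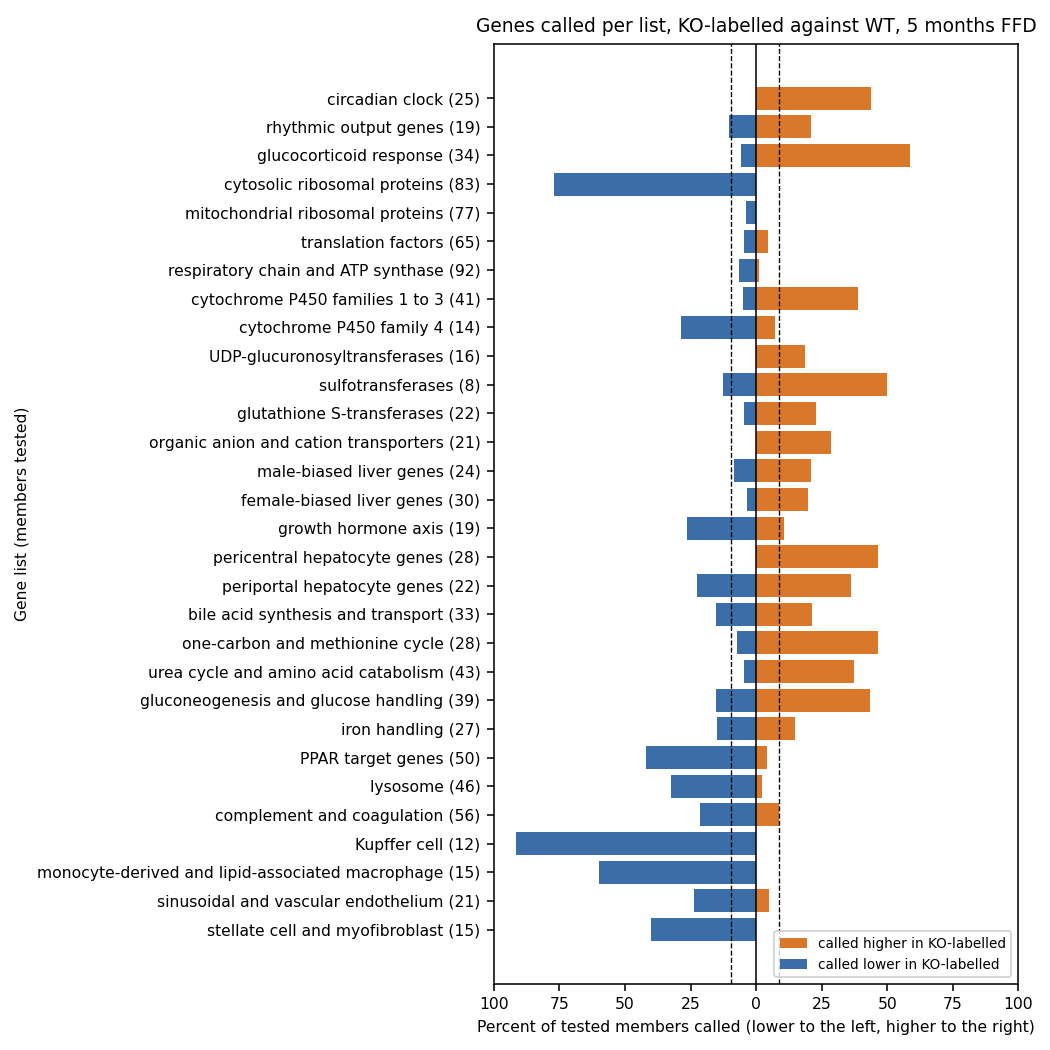
Percent of the tested members of each gene list called higher (bars to the right, orange) or lower (bars to the left, blue) in KO-labelled than in WT livers at 5 months (x axis, percent of tested members, edgeR adjusted p under 0.05); the y axis names the list with the number of members tested, and the dashed lines mark the share over all 14138 genes, 8.9% higher and 9.51% lower. Cytosolic ribosomal proteins and Kupffer cell markers are among the lists that extend only to the left, and the circadian clock and pericentral genes among those that extend only to the right.

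Genes of the circadian clock were higher as a group in KO-labelled livers. Of 25 clock genes tested, 11 (44%) rose and 0 fell and the median log2 fold change was 0.31; at an unadjusted p under 0.05, 14 were higher and 2 lower, and DESeq2 called 10 and 0. The rises lay mainly in the negative limb of the loop, where 6 of 10 genes were called. The largest was Ciart (chr3:95878503-95882251), which encodes CHRONO, a repressor of CLOCK-BMAL1. Ciart stood at 0.861, 0.739 and 0.968 CPM in the WT libraries and 10.1, 3.72 and 4.28 CPM in the KO-labelled libraries, so that even the lowest KO-labelled library was several-fold above the highest WT library (log2 fold change 2.81 ± 0.45 (SE), adjusted p = 0.00319). Usp2, a deubiquitinase that stabilises clock proteins, read 8.72, 6.25 and 4.64 against 28.7, 14.1 and 17.04 CPM (log2 fold change 1.62 ± 0.38 (SE), adjusted p = 0.0418). The period gene Per2 read 12.2, 15.6 and 15.8 against 31.8, 23.8 and 19.9 CPM and rose by 0.79 ± 0.18, whereas the cryptochrome Cry2 read 16.5, 20.9 and 21.8 against 32.9, 30.5 and 30.6 CPM and rose by 0.67 ± 0.10 (adjusted p = 0.00051). The groups did not overlap for any of these 4 genes.

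The remaining called clock genes rose less. The PAR bZIP output factors Hlf and Tef, which drive rhythmic detoxification genes, rose by 0.59 ± 0.07 and 0.52 ± 0.10 on the log2 scale, the REV-ERBα gene Nr1d1 by 0.50 ± 0.11, Per1 by 0.49 ± 0.09, the E-box repressor Bhlhe40 by 0.43 ± 0.07, the activator Rora by 0.35 ± 0.07 and the casein kinase Csnk1d by 0.22 ± 0.07. The core activators were not called: Arntl, which encodes BMAL1, read 8.95, 8.30 and 8.66 against 8.40, 9.76 and 11.96 CPM with a log2 fold change of 0.21 ± 0.14, and the values were 0.15 ± 0.08 for Clock and 0.21 ± 0.25 for Npas2. Dbp (0.31 ± 0.18), Nr1d2 (0.04 ± 0.07), Per3 (0.54 ± 0.36) and Cry1 (0.42 ± 0.17) were not called either, and their libraries overlapped between the groups. Of the 11 calls, 5 (Ciart, Cry2, Hlf, Tef and Rora) held under all 14 alternatives. Those of Usp2 and Per2 did not hold without any 1 of the WT replicates (adjusted p up to 0.174 and 0.0644), nor Usp2 without KO-labelled replicate 3, and that of Csnk1d only held without WT replicate 1 (up to 0.188 without the others). With WT replicates 2 and 3 summed, 8 clock genes were called. The hour of tissue collection is not given in the sources used here, and whether it was the same in both groups was not tested.

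Genes known to oscillate downstream of the clock did not move one way. Of 19 tested, 4 rose and 2 fell, with a median of 0.02. The uridine phosphorylase Upp2 rose by 1.81 ± 0.15 and Rgs16, a regulator of G-protein signalling induced around feeding, by 1.29 ± 0.07, while Mthfd1l, a mitochondrial enzyme of formate production, read 4.59, 4.72 and 5.71 against 1.43, 1.11 and 1.36 CPM and fell by 1.94 ± 0.22. Noct, which encodes the deadenylase-like protein nocturnin, read 40.8, 40.6 and 39.6 against 27.3, 20.1 and 27.02 CPM and fell by 0.70 ± 0.10.

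The glucocorticoid-responsive genes held several of the largest rises of the comparison. Of 34 members tested, 20 rose and 2 fell (58.8% higher, against 8.9% of all genes), and the list's median was 0.60 on the log2 scale. The transcription factor gene Zbtb16 (PLZF; chr9:48654297-48836222) stood at 6.89, 4.66 and 5.20 CPM in the WT libraries and 58.5, 56.7 and 67.4 CPM in the KO-labelled libraries (log2 fold change 3.45 ± 0.12 (SE), adjusted p = 6.8e-08). Fkbp5 (chr17:28399094-28517527), a co-chaperone that restrains the glucocorticoid receptor, stood at 15.4, 16.3 and 16.8 CPM in the WT libraries and 84.3, 87.9 and 110.4 CPM in the KO-labelled libraries (log2 fold change 2.54 ± 0.10 (SE), adjusted p = 9.2e-08). Both genes separated the groups completely, and the spread within each group was small against the gap between them. Lpin1, a phosphatidate phosphatase and transcriptional co-regulator, read 95.5, 82.8 and 80.7 against 432, 358 and 371 CPM and rose by 2.16 ± 0.09. The arrestin-domain gene Arrdc2 read 7.35, 7.96 and 8.61 against 69.7, 28.6 and 45.6 CPM, with KO-labelled replicate 1 far above the other two, and rose by 2.59 ± 0.41 (adjusted p = 0.0182).

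Smaller rises followed among known receptor targets. Ddit4, an inhibitor of mTORC1, read 21.5, 17.7 and 18.04 against 63.7, 50.005 and 65.5 CPM and rose by 1.65 ± 0.11. The Krüppel-like factor Klf9 rose by 0.91 ± 0.14, the MAP kinase phosphatase Dusp1 by 0.87 ± 0.10, the leucine zipper gene Tsc22d3 (GILZ) by 0.80 ± 0.09 and the tyrosine aminotransferase Tat by 0.43 ± 0.10. Of the genes that act on the hormone itself, Hsd11b1, which regenerates active glucocorticoid inside the cell, read 369, 351 and 349 against 589.6, 548 and 564 CPM and rose by 0.67 ± 0.07, and the receptor gene Nr3c1 read 99.4, 99.2 and 94.2 against 108, 101 and 105 CPM (log2 fold change 0.10 ± 0.06 (SE), adjusted p = 0.306). Sgk1, a kinase induced by corticosteroids in many tissues, fell by 0.42 ± 0.10, and the acute-phase factor Cebpd fell by 0.33 ± 0.09. Pck1 (0.10 ± 0.15), Igfbp1 (-0.07 ± 0.19) and the metallothionein genes Mt1 (0.79 ± 0.34) and Mt2 (0.96 ± 0.36) were not called. Of the 22 calls, 9 held under every alternative, among them Zbtb16, Fkbp5, Lpin1, Ddit4, Klf9, Dusp1 and Hsd11b1. That of Arrdc2 did not hold without any 1 of the WT replicates or without KO-labelled replicate 3 (adjusted p up to 0.0968), those of Tat and Sgk1 without WT replicate 2 or 3 (up to 0.0584 and 0.0526), and that of Cebpd without WT replicates 1 or 3 or KO-labelled replicates 1 or 3 (up to 0.114). Summing WT replicates 2 and 3 left 13 rises and 2 falls. The unknown hour of tissue collection limits these genes as it does the clock genes, and its part in their changes was not tested.

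**Figure D2:**
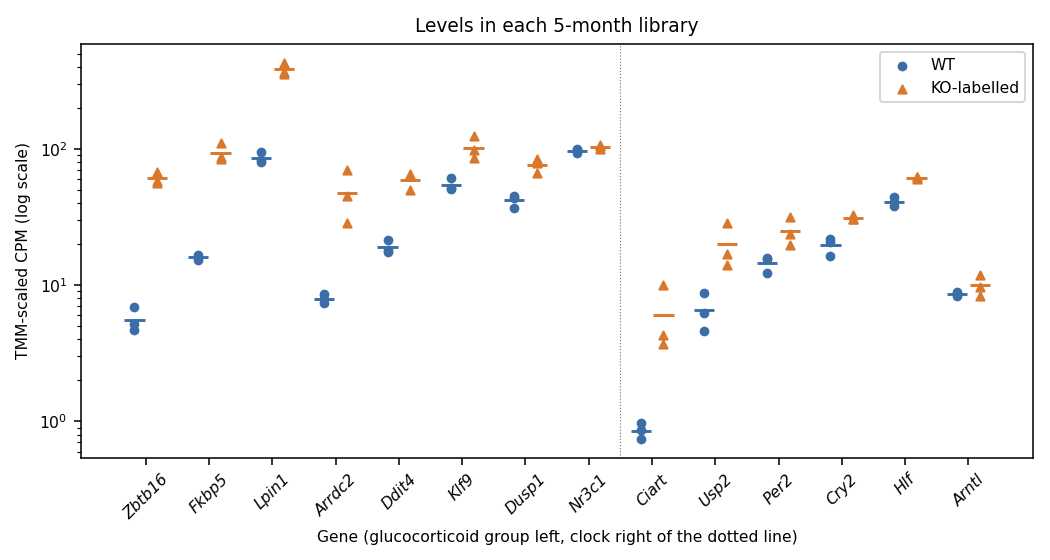
Levels of 14 clock and glucocorticoid-responsive genes in each 5-month library (y axis, TMM-scaled CPM, log scale); blue circles are the 3 WT and orange triangles the 3 KO-labelled libraries, and horizontal bars are group means. For Zbtb16, Fkbp5, Lpin1 and Ciart the 2 groups are separated by several-fold, whereas for Arntl and Nr3c1 the means nearly coincide.

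Several called genes of these 2 groups hold the E-box that CLOCK-BMAL1 and related factors recognise, and their promoter stretches are shown for that reason. The motif CACGTG, which reads the same on both strands, was searched in the 250 bases before the start of each gene in the RefSeq promoter table (GRCm38.p6), which matched 10395 of the 14138 genes tested by symbol. It occurred in 8.35% of all these promoters, in 3 of the 8 called clock genes with a promoter (Per1, Ciart and Tef) and in 6 of the 18 called glucocorticoid-responsive genes with one (Per1, Nr0b2, Fkbp5, Dusp1, Gadd45g and Klf15, the last called only with all libraries or without WT replicate 1, with adjusted p up to 0.165 without the others). Called or not, it occurred in 5 of 19 clock promoters (26.3%) and 7 of 27 glucocorticoid-responsive ones (25.9%). The called shares are to be read beside these, and Per1 is in both lists. Each stretch below is 40 bases, 5′ to 3′ on the gene's strand, with the E-box in capitals:
Ciart (chr3:95882250-95882289, minus strand): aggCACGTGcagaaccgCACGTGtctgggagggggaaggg
Per1 (chr11:69098766-69098805, plus strand): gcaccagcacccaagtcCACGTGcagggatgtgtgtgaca
Tef (chr15:81802529-81802568, plus strand): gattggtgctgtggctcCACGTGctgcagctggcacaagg
Fkbp5 (chr17:28486296-28486335, minus strand): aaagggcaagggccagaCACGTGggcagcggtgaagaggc
Dusp1 (chr17:26508576-26508615, minus strand): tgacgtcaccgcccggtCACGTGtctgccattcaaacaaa
Ciart held 2 copies within this stretch and the other genes 1 each. The half-sites of the glucocorticoid response element, ACANNNTGT, likewise the same on both strands, occurred in 3.83% of all promoters and in 1 of the 18 called glucocorticoid-responsive genes, Map3k6, a MAP kinase kinase kinase that rose by 1.26 ± 0.28. The D-box TTATGNAA, searched on both strands, occurred in 2.11% of all promoters and in that of Per1 among the 8 called clock genes, and the REV-ERB and ROR element TAGGTCA, also on both strands, in 1.85% of all and in none of the 8. A match describes letters in this window and is not a bound site.

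Messages of the cytosolic ribosome were mostly lower in KO-labelled livers. Of 83 cytosolic ribosomal protein genes tested, 64 (77.1%, against 9.51% of all genes) fell and 0 rose (median log2 fold change -0.31). At an unadjusted p under 0.05, 73 were lower and 1 higher, and DESeq2 called 63 lower and 1 higher. The small subunit (25 of 33 genes lower, median -0.32) and the large subunit (39 of 50, median -0.30) moved alike. For 71 of the 83 genes, all KO-labelled libraries lay below all WT libraries, where 18.1% of all genes did. The changes were modest for single genes: Rpl30 read 127, 122 and 120.3 against 91.04, 88.7 and 70.97 CPM and fell by 0.56 ± 0.09 and Rpl41 fell by 0.51 ± 0.08.

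Rps27, a small-subunit protein gene on chromosome 3, stood at 93.7, 96.3 and 88.9 CPM in the WT libraries and 36.96, 49.5 and 33.9 CPM in the KO-labelled libraries (log2 fold change -1.21 ± 0.13 (SE), adjusted p = 0.00028). It shares sequence with the retrogene Rps27rt, which read 22.6, 20.6 and 26.8 against 44.4, 25.5 and 41.5 CPM (log2 fold change 0.67 ± 0.24 (SE), adjusted p = 0.132), so how reads were divided between the 2 copies could not be settled and the fall of Rps27 is uncertain. Rpl24 read 4.08, 3.81 and 3.67 against 2.03, 2.36 and 2.17 CPM and fell by 0.81 ± 0.20, and it is uncertain for the same reason, since ribosomal protein genes have many near-identical processed copies. Ribosomal protein genes that were not called, named here after their values were seen, included Rps2 (-0.16 ± 0.08), Rpl4 (-0.13 ± 0.06) and Rpl5 (-0.19 ± 0.07), all with negative values.

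Calls were far fewer in the rest of the translation machinery. Of 77 mitochondrial ribosomal protein genes, 3 fell and 0 rose (median -0.04). Of 65 genes named for cytosolic translation factors 3 rose and 3 fell (median -0.03), a list that also holds regulators of the factors. In it, the initiation factor subunit Eif3i fell by 0.29 ± 0.07 and the elongation factor subunit Eef1b2 by 0.24 ± 0.06. Eif2ak3, which encodes the ER stress kinase PERK and not a factor itself, rose by 0.45 ± 0.09. Of 20 aminoacyl-tRNA synthetases 1 rose (Tars, 0.30 ± 0.06) and 1 fell (Sars, -0.26 ± 0.06), and of 36 proteasome genes 2 fell. The calls of Eif3i (without WT replicates 2 or 3 or KO-labelled replicate 3, adjusted p up to 0.0795), Eef1b2 and Sars (without WT replicate 2, 0.0524 and 0.0702) rested on single libraries. The nuclear and mitochondrial genes of the respiratory chain and ATP synthase numbered 92, of which 1 rose and 6 fell (median -0.07), with Ndufa2 of complex I falling by 0.33 ± 0.08 and Cox7a2 of complex IV by 0.31 ± 0.07 (not called without KO-labelled replicate 3, adjusted p = 0.0629). The 13 genes encoded in the mitochondrial genome had a median of 0.13 with 0 called by edgeR, and 3 had an unadjusted p under 0.05. With library size alone, where 1894 of all 14138 genes were lower, 0 mitochondrial ribosomal protein genes were higher and 11 lower, 3 and 8 of the translation factors, and 0 and 20 of the respiratory chain genes (median -0.13). The respiratory chain median was -0.02 without WT replicate 1.

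**Figure D3:**
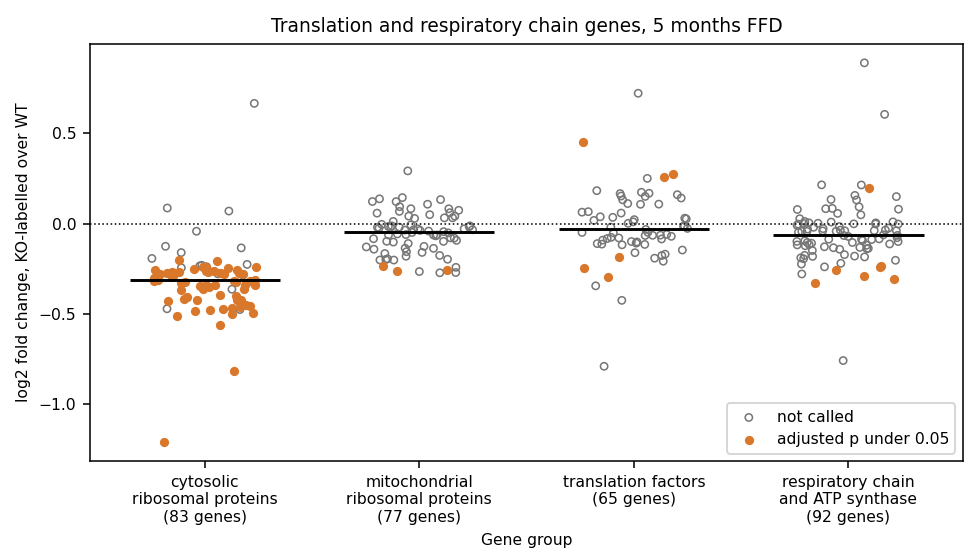
Log2 fold change, KO-labelled over WT at 5 months (y axis), of every tested member of 4 gene groups (x axis, with the number of genes); filled points passed edgeR at an adjusted p under 0.05, open points did not, and the horizontal bars are group medians with the dotted line at 0. Cytosolic ribosomal proteins lie almost wholly below 0 with a median of -0.31, the retrogene Rps27rt at 0.67 apart, whereas mitochondrial ribosomal proteins, translation factors and the respiratory chain centre near 0.

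The TOP tract is a property of the transcript's first bases, and 2 windows of 25 bases around annotated starts are shown because they hold the pyrimidine letters CTTTC. In the Rpl12 window the marked letters lie well after the annotated start, so they need not be the tract itself. The windows of Rpl24, Rps2, Rpl4 and Rpl5 were also read, did not hold the letters and are not printed. The letters CTTTC, searched on the gene's strand from 5 bases before to 20 bases after the start, occurred in 2.73% of all 10395 windows, in 15 of 62 cytosolic ribosomal protein genes (24.2%) and in 1 of 68 mitochondrial ones. Of the 49 called cytosolic ribosomal protein genes with a window, 12 (24.5%) held the letters, near the share of all 62. The letters are in capitals:
Rps27 (chr3:90213629-90213653, minus strand): tcgctcCTTTCcggcggtgacgacc
Rpl12 (chr2:32961707-32961731, plus strand): gatccgtcttttcggCTTTCggctc
Annotated starts can differ from the true cap site by several bases, so a window without these letters says nothing about the tract of that transcript. Rpl12 read 149.98, 175 and 178 against 135, 139 and 124 CPM (log2 fold change -0.34 ± 0.08 (SE), adjusted p = 0.00843; not called without WT replicate 3 or KO-labelled replicate 3, up to 0.0542) and is named for its window. The count of lower cytosolic ribosomal protein genes ranged from 43, without KO-labelled replicate 3, to 74, with library size alone, over the alternatives, and was 48 with WT replicates 2 and 3 summed. The median stayed between -0.38 and -0.28, and 38 of the 64 calls held under every alternative.

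Drug-metabolising genes were on balance higher in KO-labelled livers. Of 41 tested CYP genes of families 1 to 3, 16 (39%) rose and 2 fell (median 0.28), and 15 of the 16 rises were in the CYP2 family. Cyp2b13 read 6.31, 5.00 and 5.25 against 27.1, 57.5 and 41.5 CPM (log2 fold change 2.93 ± 0.35 (SE), adjusted p = 0.00574) and its neighbour Cyp2b9 39.1, 53.5 and 53.4 against 129, 177 and 145 CPM (log2 fold change 1.63 ± 0.16 (SE), adjusted p = 0.00088); both are known as female-predominant enzymes. Cyp2a5, a coumarin hydroxylase, read 314, 282 and 282 against 674, 1604 and 1398 CPM and rose by 2.07 ± 0.37, with KO-labelled replicate 1 well below the other two. Cyp1a2, which metabolises caffeine and heterocyclic amines, read 171, 144 and 145 against 309.8, 398 and 392 CPM and rose by 1.26 ± 0.11, and the pericentral Cyp2c54 and Cyp2c50 rose by 1.61 ± 0.11 and 0.89 ± 0.10.

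The CYP3 family did not share the rise. Cyp3a11, the mouse counterpart of human CYP3A4, stood at 6861, 6768 and 6332 CPM in the WT libraries and 3824, 2830.1 and 2267 CPM in the KO-labelled libraries and fell by 1.16 ± 0.17 (adjusted p = 0.00203), with no overlap between the groups. Cyp2u1, a fatty acid hydroxylase, fell by 0.75 ± 0.19, not called without KO-labelled replicate 3 (adjusted p = 0.0706). The call of Cyp3a11 missed the threshold without WT replicate 1 (adjusted p = 0.0653), that of Cyp2b13 in the fit of all 12 libraries (adjusted p = 0.115), and that of Cyp2a5 without any 1 of the WT replicates or KO-labelled replicates 2 or 3 (adjusted p up to 0.114). CYP2 genes lie in clusters of near-identical copies, and how reads shared between copies were counted is not given in the sources used here. With WT replicates 2 and 3 summed, 11 of 43 CYP genes of families 1 to 3 were higher and 2 lower (median 0.46).

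**Figure D4:**
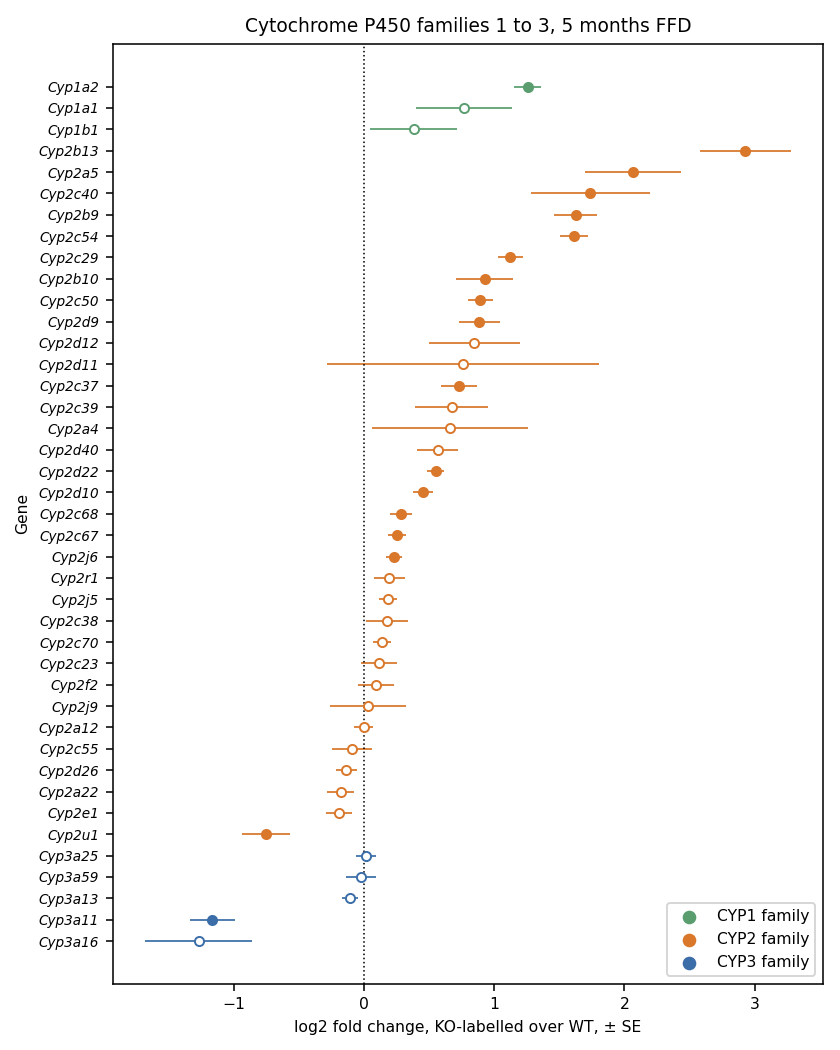
Log2 fold change, KO-labelled over WT at 5 months, with its standard error (x axis), of the 41 tested genes of CYP families 1 to 3 (y axis, ordered within family); filled points passed edgeR at an adjusted p under 0.05 and open points did not, and colours separate the families. Called genes of the CYP2 family run from -0.75 for Cyp2u1 to 2.93 for Cyp2b13, and Cyp3a11 at -1.16 is the only called CYP3 gene.

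Among the receptors that sense xenobiotics, Nr1i3, which encodes the constitutive androstane receptor that drives Cyp2b genes, read 12.2, 12.8 and 11.2 against 15.5, 19.4 and 20.9 CPM and rose by 0.62 ± 0.12 (adjusted p = 0.00302). The dioxin receptor partner Arnt rose by 0.25 ± 0.07. Nr1i2 (the pregnane X receptor, which drives Cyp3a11) at 0.11 ± 0.08 and Ahr (the dioxin receptor, which drives Cyp1a2) at 0.21 ± 0.07 were not called; both are named after their values were seen. The electron carriers split, with Cyb5r3 higher by 0.49 ± 0.06, Cyb5a lower (-0.33 ± 0.08), and the P450 reductase gene Por, also named afterwards, at 0.02 ± 0.08. The call of Arnt did not hold without WT replicates 2 or 3 or KO-labelled replicate 1 (adjusted p up to 0.102), nor that of Cyb5a without KO-labelled replicate 3 (0.0591).

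Conjugation enzymes and transporters held more called rises than falls, as did the P450s of families 1 to 3. Of 16 UDP-glucuronosyltransferases 3 rose and 0 fell, led by Ugt1a5 at 11.02, 8.81 and 9.89 against 24.7, 38.5 and 32.5 CPM (log2 fold change 1.68 ± 0.16 (SE), adjusted p = 0.00015), which shares its last exons with the other Ugt1a genes. Of 8 sulfotransferases 4 rose, among them the bile acid sulfotransferase Sult2a8 (239, 202 and 204 against 522, 479.8 and 449.96 CPM; 1.17 ± 0.08) and Sult1b1 (0.78 ± 0.09), and Sult5a1 read 3.56, 2.90 and 3.01 against 1.66, 0.553 and 0.806 CPM and fell by 1.61 ± 0.34. Glutathione S-transferases counted 5 rises and 1 fall of 22, with Gstp3 (0.58 ± 0.10) and Gsta3 (0.51 ± 0.09) higher and the microsomal Mgst3 lower (-0.61 ± 0.17). Flavin monooxygenases and carboxylesterases counted 4 rises and 2 falls of 17, where Ces2c rose by 0.74 ± 0.15 and Ces2a fell by 0.45 ± 0.07. Of 32 aldehyde and aldo-keto enzymes 9 rose and 5 fell, and of 21 organic ion transporters 6 rose and 0 fell. The organic anion transporter Slco1a1 read 22.4, 16.1 and 16.1 against 183, 60.02 and 112 CPM and rose by 2.70 ± 0.52 (adjusted p = 0.0354). Its KO-labelled libraries varied widely among themselves, with replicate 1 highest and replicate 2 lowest, and the call did not hold without any 1 of the WT replicates or KO-labelled replicate 3 (adjusted p up to 0.142), nor that of Mgst3 without WT replicates 2 or 3 or KO-labelled replicate 3 (up to 0.149). By contrast, family 4 P450s, which oxidise fatty acids, counted 1 rise and 4 falls of 14, with the PPARα-responsive Cyp4a14 at 249.9, 271 and 279 against 111, 111 and 91.6 CPM and lower (-1.35 ± 0.08). With WT replicates 2 and 3 summed, 3 glucuronosyltransferases, 4 sulfotransferases, 4 glutathione S-transferases and 4 transporters were higher, and with library size alone the aldehyde and aldo-keto enzymes counted 7 higher and 6 lower. With that scaling glutathione S-transferases counted 5 higher and 3 lower, and flavin monooxygenases and carboxylesterases 4 and 4.

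Sex-biased liver genes did not shift as a programme, since both the male-biased and the female-biased lists held more rises than falls. Of 24 tested male-biased genes 5 rose and 2 fell (median 0.26), and of 30 female-biased genes 6 rose and 1 fell (median 0.35). The male-biased rises were led by Slco1a1 and by Susd4, a complement regulator, at 1.89, 1.99 and 2.70 against 13.8, 10.97 and 9.54 CPM (log2 fold change 2.38 ± 0.19 (SE), adjusted p = 5.3e-06), followed by the steroid hydroxylase Cyp2d9 (0.89 ± 0.16). The male-biased falls were Sult5a1 and Cyp2u1, described above. The female-biased rises were led by Cyp2b13 and Cyp2b9, followed by Cyp2b10 (0.93 ± 0.22) (not called without WT replicates 2 or 3 or KO-labelled replicate 3, adjusted p up to 0.0671) and the retinoic acid hydroxylase Cyp26a1 (0.85 ± 0.11), and Cyp4a14 was the fall. The 17 major urinary protein genes, hormone-dependent and nearly identical in sequence, had a median of -0.95 with 0 calls by edgeR, 3 lower at an unadjusted p under 0.05 and 3 called lower by DESeq2, and how reads were assigned among the copies is not given in the sources used here. The male-biased median was 0.13 without KO-labelled replicate 1 and 0.42 without WT replicate 1, and the female-biased list, whose median ran from 0.25 without KO-labelled replicate 3 to 0.48 without WT replicate 2, held 5 higher and 5 lower genes without WT replicate 1 and 12 and 2 without KO-labelled replicate 1. With WT replicates 2 and 3 summed, 4 male-biased genes were higher and 2 lower (median 0.23), and 5 and 1 of the female-biased (median 0.45).

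Genes of the growth hormone and IGF1 axis, which sets the sex pattern, counted 2 rises and 5 falls of 19. The feedback inhibitor Socs2, a direct STAT5 target, stood at 7.23, 6.31 and 5.96 CPM in the WT libraries and 2.49, 2.57 and 1.86 CPM in the KO-labelled libraries and fell by 1.48 ± 0.19 (adjusted p = 0.00017). Igfbp2, which binds insulin-like growth factors, read 392, 319.7 and 318 against 138, 113 and 145 CPM and fell by 1.38 ± 0.11, the epidermal growth factor receptor gene Egfr read 163, 130.5 and 126 against 95.8, 82.1 and 84.3 CPM and fell by 0.67 ± 0.10, and Stat5a fell by 0.38 ± 0.12. The hormone's receptor gene Ghr rose by 0.29 ± 0.08, and Trim24, a co-regulator of nuclear receptors, read 19.1, 19.6 and 20.5 against 28.8, 40.2 and 41.5 CPM and rose by 0.90 ± 0.13. The calls of Stat5a and Ghr did not hold without WT replicates 2 or 3 or KO-labelled replicate 1, nor that of Stat5a without KO-labelled replicate 2 (adjusted p up to 0.185 and 0.11). After WT replicates 2 and 3 were summed, 1 gene of the axis was higher and 4 were lower.

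Genes expressed around the central vein were higher and those around the portal vein were mixed. Of 28 pericentral genes 13 (46.4%) rose and 0 fell (median 0.29; 1 was lower at an unadjusted p under 0.05, and DESeq2 called 13 higher and 0 lower), led by Cyp2c54, Cyp1a2 and Cyp2c50 and the cation transporter Slc22a3 (0.86 ± 0.13). Of 22 periportal genes 8 rose and 5 fell (median 0.10), with Upp2, the ethanolamine-phosphate lyase gene Etnppl (0.82 ± 0.14) and the urea cycle gene Asl (0.55 ± 0.07) higher and Igfbp2, the protease gene Ctsc (-0.94 ± 0.06), the glucose-6-phosphatase gene G6pc (-0.66 ± 0.07) and the histidase gene Hal (-0.46 ± 0.10) lower. Of the 13 pericentral rises 7 held under every alternative. Counts were 10 higher and 0 lower for the pericentral and 4 and 5 for the periportal list with WT replicates 2 and 3 summed. The pericentral median was 0.16 without KO-labelled replicate 2, and the periportal median 0.26 without WT replicate 1.

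In bile acid metabolism, 7 of 33 genes rose and 5 fell. Cyp8b1, the sterol 12α-hydroxylase that sets the share of cholic acid, read 152, 128 and 127 against 303, 401 and 291 CPM and rose by 1.29 ± 0.13 (adjusted p = 0.0003). Akr1d1, the reductase acting later in the same pathway, read 123, 98.1 and 104 against 241, 276 and 252 CPM and rose by 1.24 ± 0.09, and Nr0b2, the repressor SHP, read 41.04, 34.4 and 35.6 against 85.1, 82.3 and 73.4 CPM and rose by 1.12 ± 0.08. These 3 genes separated the groups completely. The sterol exporter pair Abcg5 and Abcg8 fell by 0.82 ± 0.07 and 0.79 ± 0.08, and the basolateral exporter Abcc3 by 0.50 ± 0.13, the last not called without any 1 of the WT replicates (adjusted p up to 0.192). The bile acid list held 6 higher and 3 lower genes with WT replicates 2 and 3 summed.

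One-carbon and amino acid catabolism held many more rises than falls. Of 28 genes of the methionine and folate cycles 13 rose and 2 fell, and 13 of these 15 calls held under every alternative. Bhmt, which remethylates homocysteine with betaine, read 2683, 2270.1 and 2269 against 4841, 4413 and 3869.7 CPM and rose by 0.86 ± 0.10, and Dmgdh (0.78 ± 0.08), Aldh1l1 (0.76 ± 0.09) and Shmt1 (0.75 ± 0.06) followed. Gatm, the first enzyme of creatine synthesis, fell by 0.56 ± 0.11. Of 43 urea cycle and amino acid catabolic genes 16 rose and 2 fell (median 0.17), with the proline dehydrogenase gene Prodh (0.79 ± 0.06), Asl and the alanine aminotransferase Gpt2 (0.54 ± 0.07) higher. The methionine and folate list held 12 higher and 2 lower genes, and the amino acid list 7 and 2, with WT replicates 2 and 3 summed.

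Glucose handling changed in both directions, with 17 rises and 6 falls among 39 genes. Ppargc1a, the co-activator PGC-1α, read 6.89, 6.59 and 6.73 against 17.1, 17.4 and 15.99 CPM and rose by 1.32 ± 0.10 (adjusted p = 4.7e-06), and the liver pyruvate kinase gene Pklr rose by 1.12 ± 0.13. Of the 8 glycogen genes 6 rose and 1 fell, led by the glycogen-targeting subunits Ppp1r3b (245, 243 and 238 against 469, 546 and 468 CPM; 1.03 ± 0.07) and Ppp1r3c (0.87 ± 0.15), whereas their relative Ppp1r3g fell by 1.03 ± 0.20. The hexokinase gene Hk2, little expressed in normal hepatocytes, read 8.49, 12.5 and 13.5 against 3.41, 2.21 and 3.66 CPM and fell by 1.90 ± 0.22. Summing WT replicates 2 and 3 left 15 genes of the glucose list higher and 3 lower.

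Iron genes counted 4 rises and 4 falls of 27. The transferrin receptor gene Tfrc read 28.5, 28.1 and 33.1 against 99.99, 75.96 and 80.6 CPM and rose by 1.51 ± 0.11, while the haem scavenger Hpx (7952, 9523 and 9452 against 5849, 4908 and 4913 CPM) fell by 0.78 ± 0.10 and the iron exporter Slc40a1 by 0.68 ± 0.14, the latter not called without any 1 of the WT replicates (adjusted p up to 0.103). Of 48 antioxidant genes 8 rose and 5 fell: Nfe2l2, which encodes NRF2, fell by 0.55 ± 0.06 and Gpx1 by 0.56 ± 0.10, while the NADPH-producing enzymes Me1 and Pgd rose by 0.72 ± 0.18 and 0.66 ± 0.12. The call of Me1 did not hold without any 1 of the WT replicates or KO-labelled replicate 3, nor that of Pgd without WT replicate 1 (adjusted p up to 0.137 and 0.0684). There were 4 rises and 4 falls among 40 unfolded protein and integrated stress response genes (4 and 10 with library size alone) and 1 rise and 3 falls among 17 heat shock genes, where the small chaperone Hspb1 read 88.1, 83.4 and 88.1 against 43.9, 44.7 and 47.9 CPM and fell by 0.93 ± 0.06. Of 55 cell cycle genes 1 rose, the ribonucleotide reductase subunit Rrm2 (1.00 ± 0.16), and 5 fell. With library size alone the antioxidant list held 4 higher and 8 lower genes, and with WT replicates 2 and 3 summed 2 and 4.

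Of 39 liver transcription factor genes 8 rose and 2 fell, with Mlxipl (ChREBP, 0.45 ± 0.12) and Ppara (0.45 ± 0.08) higher and Nr2f2 (COUP-TFII) lower (-0.49 ± 0.08); Mlxipl was not called without KO-labelled replicate 1 or 3 (adjusted p up to 0.084). Among 50 PPAR target genes 2 rose and 21 fell. The 15 tied to lipid droplets and PPARγ counted 11 falls and no rise (median -0.83), led by Cfd, whose 3 WT libraries together held 353 counts and whose KO-labelled libraries held 0, at least 124.0-fold lower on the TMM-scaled level with the floor set at 3 counts over the group. The lipid droplet protein genes Cidea (33.7, 17.7 and 22.3 against 0.600, 0.201 and 0.124 CPM), Cidec (143, 138 and 138 against 25.9, 21.6 and 16.9 CPM; -2.70 ± 0.13) and Plin4 (58.4, 60.1 and 65.5 against 15.1, 6.19 and 11.8 CPM; -2.47 ± 0.32) were also lower, with no overlap between the groups. The 35 tied to PPARα counted 2 rises, Acot4 (0.48 ± 0.08) and Cyp2j6 (0.23 ± 0.06; not called without WT replicates 2 or 3 or KO-labelled replicates 1 or 2, adjusted p up to 0.101), and 10 falls. Lysosomal genes counted 1 rise and 15 falls of 46, and complement and coagulation genes 5 rises and 12 falls of 56, where the properdin gene Cfp fell by 1.09 ± 0.11 and coagulation factor F11 rose by 0.56 ± 0.09. With library size alone 4 transcription factor genes were higher and 6 lower, and with WT replicates 2 and 3 summed 3 and 2, while the PPAR targets counted 1 and 21, the lysosomal genes 1 and 10, and the complement and coagulation genes 2 and 9 with the pair summed.

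Markers of the liver's other cell types moved beside these lists. Hepatocyte markers were present at high levels in every library: Alb, the serum albumin gene, read 32787, 37631 and 37500.4 against 61233, 55339.8 and 51244 CPM and rose by 0.64 ± 0.11, and the 11 hepatocyte markers together summed to 62020.1 to 67989.8 CPM in WT and 83469.8 to 94349.6 CPM in KO-labelled libraries. Alb held a large part of these sums. Of the 11 hepatocyte markers 3 rose and 0 fell (median 0.16), and 4 had values below 0. Of 12 Kupffer cell markers 11 fell and 0 rose (median -0.91), the same counts as by DESeq2, and their summed level was 1470.5 to 1681 CPM in WT and 752 to 932 CPM in KO-labelled libraries. Clec4f, a lectin gene restricted to resident Kupffer cells, stood at 218, 206 and 203 CPM in the WT libraries and 102, 131 and 131 CPM in the KO-labelled libraries and fell by 0.79 ± 0.09. Cd5l read 533, 590.3 and 581 against 237, 285 and 224 CPM and fell by 1.19 ± 0.09, Timd4 fell by 1.38 ± 0.37 and Folr2 by 1.16 ± 0.25. The scavenger receptor gene Marco was the exception, at 28.1, 32.8 and 30.7 against 2.21, 36.3 and 5.21 CPM, with KO-labelled replicate 2 above every WT library (log2 fold change -1.06 ± 1.05 (SE), adjusted p = 0.585). The calls of Timd4 and of Adgre1 (-1.20 ± 0.26) did not hold without WT replicates 2 or 3 or KO-labelled replicates 1 or 3, nor that of Timd4 without WT replicate 1 (adjusted p up to 0.123 and 0.138). Of the Kupffer cell markers, 9 were lower and 0 higher with WT replicates 2 and 3 summed.

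Other leukocyte markers were lower or not called, several of them near their detection limit, and the immunoglobulin gene Ighm was the only called rise. Of 15 markers of monocyte-derived and lipid-associated macrophages 9 fell and 0 rose (median -0.85), among them Itgam (1.55, 3.13 and 2.90 against 0.554, 1.01 and 0.496 CPM; -1.86 ± 0.37) and Lgals3 (63.4, 92.1 and 82.9 against 28.9, 33.9 and 30.4 CPM; -1.35 ± 0.13), and their sum was 705 to 1089 CPM in WT and 509 to 664 CPM in KO-labelled libraries. Of 7 B and plasma cell markers tested 3 fell, with Ms4a1 (1.09, 0.796 and 1.12 against 0.138, 0.252 and 0.372 CPM) and Cd22 (3.10, 5.06 and 5.20 against 1.98, 1.36 and 1.36 CPM) at no more than a few CPM in any library, while Ighm, the immunoglobulin M heavy chain gene, read 11.5, 20.1 and 18.1 against 42.2, 36.4 and 33.8 CPM and rose by 1.18 ± 0.20. The 11 listed B and plasma cell markers summed to 27.9 to 46.0 CPM in WT and 41.3 to 61.0 CPM in KO-labelled libraries. Of 13 T and NK cell markers 3 fell, none with a call that held under every alternative. MHC class II presentation genes counted 4 falls of 9. Only 4 of 12 neutrophil markers passed the filter, and 2 of them, S100a9 and Csf3r, fell, the first not called without WT replicate 3 or KO-labelled replicates 2 or 3 (adjusted p up to 0.0962). With WT replicates 2 and 3 summed, 5 macrophage markers, 2 B and plasma cell markers, 1 MHC class II gene and 0 T and NK cell markers were lower by edgeR; DESeq2 on all libraries called 4 of the T and NK cell markers lower.

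Of 21 endothelial markers 1 rose (Flt1, 0.48 ± 0.13) and 5 fell, with the sinusoidal receptors Fcgr2b and Clec4g lower (-0.61 ± 0.07 and -0.53 ± 0.09) and sums of 609.9 to 638 against 549 to 589 CPM. Of 15 stellate cell and myofibroblast markers 6 fell, with Acta2 at 5.45, 6.76 and 7.13 against 1.38, 3.12 and 3.16 CPM and Lum lower (-0.82 ± 0.13). Among 9 cholangiocyte markers Sox9 (0.63 ± 0.15) and Pkhd1 (0.39 ± 0.11) rose and Anxa4 fell by 0.34 ± 0.07. The calls of Flt1 (without WT replicates 2 or 3 or KO-labelled replicate 2, adjusted p up to 0.0889), Sox9 (without WT replicate 2, 0.0556) and Pkhd1 (without WT replicate 2 or any 1 KO-labelled replicate, up to 0.103) rested on single libraries. Of adipocyte, skeletal muscle and acinar markers, 4 of 8, 6 of 7 and 8 of 9 were under 1 CPM in all 6 libraries. The part that these shifts in cell-type markers played in the falls of lysosomal, complement and MHC class II genes was not tested. Summing WT replicates 2 and 3 left 2 endothelial and 4 stellate cell markers lower.

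The 15 largest rises and 15 largest falls with no overlap between groups held further genes outside the lists. Rises included Chrna4, a nicotinic receptor subunit, at 0.976, 1.88 and 2.04 against 10.7, 11.3 and 11.5 CPM, the neuronal pentraxin Nptx1 at 0.344, 0.0568 and 0.204 against 0.923, 1.41 and 1.43 CPM, the plasma membrane calcium pump Atp2b2 at 1.61, 1.93 and 1.99 against 8.91, 12.2 and 10.7 CPM, the class I-like gene H2-Bl at 0.287, 0.284 and 0.0510 against 1.25, 0.604 and 1.92 CPM and the Ras-like Rasl10b at 0.287, 0.682 and 0.255 against 1.85, 1.86 and 2.67 CPM. In each of these 5 the lowest KO-labelled library lay above the highest WT library. Falls included Acod1, which makes itaconate in activated macrophages, at 1.55, 3.01 and 3.87 against 0.415, 0.453 and 0.248 CPM, Kbtbd11, a Kelch-domain gene, at 7.00, 5.80 and 7.44 against 0.784, 1.16 and 1.05 CPM, the sulfatide synthesis enzyme Gal3st1 at 6.54, 6.71 and 8.61 against 1.11, 1.66 and 0.620 CPM, the orphan receptor Gprc5b at 6.89, 7.56 and 5.86 against 1.15, 1.06 and 1.49 CPM and Olig1, an oligodendrocyte transcription factor, at 17.05, 11.03 and 11.7 against 2.68, 2.26 and 2.97 CPM. All 10 held their call under every alternative other than H2-Bl, which missed the threshold without KO-labelled replicate 3 (adjusted p = 0.0514). The remaining rises were Lrtm1, a leucine-rich repeat membrane protein gene (3.90, 2.05 and 1.48 against 20.8, 28.7 and 28.01 CPM), the glycosyltransferase gene A4gnt (0.861, 1.99 and 1.27 against 9.97, 12.8 and 5.95 CPM) and Chic1 (0.402, 0.455 and 0.662 against 2.17, 1.61 and 3.84 CPM). The remaining falls were Sdcbp2, a syntenin relative (5.40, 9.04 and 9.38 against 0.185, 0 and 0.186 CPM), the pseudogene Serpina4-ps1 (5.17, 1.65 and 3.01 against 0.0461, 0 and 0.186 CPM), Rufy4 (1.61, 2.39 and 1.89 against 0.277, 0.151 and 0.0620 CPM), the BMP signal transducer Smad9 (5.40, 3.75 and 4.03 against 0.369, 1.36 and 0.806 CPM), Fam167a (2.12, 1.82 and 3.47 against 0.600, 0.252 and 0.620 CPM) and Gm36161 (1.15, 1.42 and 2.09 against 0.369, 0.453 and 0.0620 CPM). Those of Serpina4-ps1 and Smad9 were not called in the fit of all 12 libraries (adjusted p = 0.0867 and 0.115).

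The 2-month libraries of the series, 3 WT and 3 KO-labelled, allowed a test of whether these effects differed by time; on their own 3.56% of 14573 genes were called at 2 months, 1.78% higher and 1.78% lower. In one fit of all 12 libraries, the 5-month effect differed from the 2-month effect for 238 of 15127 genes (1.57%), 100 in the higher and 138 in the lower direction, and among the 2602 genes called at 5 months for 194 (7.46%). Those 2602 genes were chosen by 5-month values that also enter the difference. Their share is raised by that choice and cannot be set against the 1.57%. The count of 238 rested on single libraries, running from 83 without WT replicate 3 at 5 months to 567 without WT replicate 1 at 2 months. Cytosolic ribosomal proteins had a median of -0.31 at 5 months and -0.01 at 2 months, where edgeR called 0 and 3 had an unadjusted p under 0.05. The difference passed the edgeR test for 12 of their 83 genes, all in the lower direction. Among them were Rplp1 (log2 difference -0.57 ± 0.09, adjusted p = 0.00465) and Rps15a (-0.57 ± 0.10, adjusted p = 0.00857), named for this test. Kupffer cell markers had a median of -0.91 at 5 months and 0.20 at 2 months, and 9 of the 12 differed, Clec4f among them (-1.10 ± 0.13, adjusted p = 0.00099). Markers of monocyte-derived and lipid-associated macrophages had medians of -0.85 at 5 months and -1.02 at 2 months. At 2 months 6 of these 15 were called lower. By edgeR 0 differed between the times, with 3 at an unadjusted p under 0.05.

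Of the clock genes, Ciart (2.79 ± 0.54, adjusted p = 0.0338), Hlf (0.52 ± 0.11, adjusted p = 0.0212) and Cry2 (0.63 ± 0.14, adjusted p = 0.0357) differed between the times, and the list median was 0.03 at 2 months. Mean levels of rhythmic genes also differed between the ages in both groups, with each age scaled separately: Dbp averaged 138 CPM in WT and 124 CPM in KO-labelled libraries at 2 months against 30.6 and 37.96 CPM at 5 months, and Per3 65.4 and 62.8 against 8.80 and 12.7 CPM. Ciart averaged 12.5 CPM in WT and 12.6 CPM in KO-labelled libraries at 2 months, against 0.856 and 6.02 CPM at 5 months. The part of these levels in the difference between times was not tested. Of the glucocorticoid-responsive genes Fkbp5 (2.00 ± 0.26, adjusted p = 0.00643) and Dusp1 (1.28 ± 0.23, adjusted p = 0.0256) did. Zbtb16, with the larger point difference of 2.83 ± 0.73, did not pass (adjusted p = 0.112); the standard error of its 2-month effect was 0.66, against 0.12 at 5 months. The list median was 0.36 at 2 months. The CYP genes of families 1 to 3 had medians of 0.28 and 0.29 at the 2 times, and 0 members passed the test of the difference by edgeR, with 11 at an unadjusted p under 0.05. Trim24, Cyp8b1, Gpt2 and Tfrc differed in the higher direction, and Igfbp2, Ctsc, Hpx, Cfp and Sult5a1 in the lower. The times share no libraries, and whether the 2 sets were prepared together is not given in the sources used here.

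**Figure D5:**
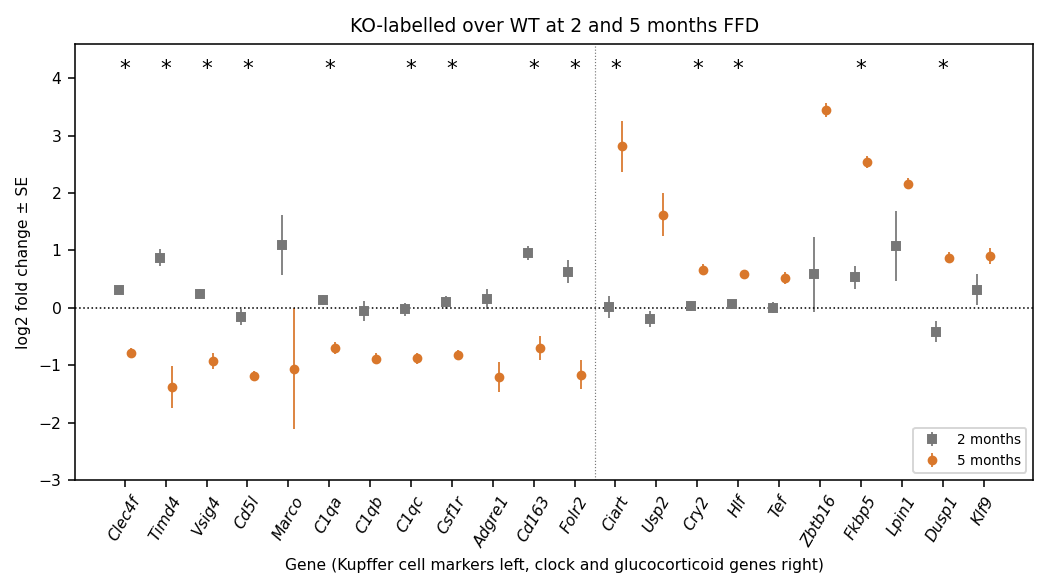
Log2 fold change, KO-labelled over WT, with its standard error, at 2 months (grey squares) and 5 months (orange circles) on the y axis, for Kupffer cell markers on the left and for clock and glucocorticoid-responsive genes on the right of the x axis; asterisks mark genes whose 5-month effect differed from the 2-month effect (edgeR adjusted p under 0.05). Kupffer cell markers lie near or above 0 at 2 months and below 0 at 5 months, while the fold changes of Ciart and Fkbp5 are larger at 5 months. These are fold changes between the groups and not levels.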

How the data were processed

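Total liver RNA was extracted with TRIzol and sequenced by the study on an Illumina NovaSeq. The authors deposited raw read counts per gene, 1 file per library, aligned to mm10; the study's methods name STAR, the submitters' processing notes name HISAT2, and the counting tool, annotation version and strand setting are not given in the sources used here. Counts per gene were joined by gene identifier, and 27 gene names stored as dates were restored. The 5-month libraries (16367775 to 22249141 counts) were filtered with filterByExpr, scaled by TMM and tested by genotype alone in edgeR 4.0.16 (R 4.3.3) with the robust quasi-likelihood F-test, two-sided, Benjamini-Hochberg threshold 0.05; the difference between times was a contrast in 1 fit of all 12 libraries. Scripts were tested on simulated data. The alternatives were DESeq2 1.42.0, other size factors, filters and thresholds, a replicate block, all 12 libraries fitted jointly, leaving out single libraries and, chosen after seeing the data, WT replicates 2 and 3 summed. List members were summarised by counts and medians with no set test. Names were drawn from the clock and glucocorticoid lists, up to 4 called rises and 4 called falls per list with at least 1 CPM in either group, the 15 largest non-overlapping rises and falls over all genes, leaving out cholesterol synthesis and cytokine genes, and cell-type markers; not every gene that met this rule is printed. The members and lists were chosen with earlier results of these data known. Depth sets the precision of low values, and the floor of 3 counts covers counting error only.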

Additional observations from a re-analysis of the deposited data

Results flagged for a closer look

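The KO-labelled against WT effect differed between 5 and 2 months, by edgeR's test of the difference itself in the fit of all 12 libraries, for 27 genes named in the text. The text names 190 tested genes, many of them picked by their 5-month values, and Rplp1 and Rps15a were picked by this very test. The count of 27 therefore depends on how the names were picked. It does not measure how often effects differed between the times. Values are the 5-month minus the 2-month log2 fold change. It was positive for 12: Rasl10b (3.24; not tested at 2 months alone, its counts there being under the filter), Ciart (2.79), Fkbp5 (2.00), Tfrc (1.98), Cyp8b1 (1.3), Dusp1 (1.28), the acyl-CoA thioesterase gene Acot4 (1.24), Trim24 (1.09), Gpt2 (0.78), Cry2 (0.63), Pparg itself (0.62) and Hlf (0.52). Effects of Dusp1 (-0.42 at 2 months against 0.87 at 5), Tfrc (-0.48 against 1.51), Acot4 (-0.78 against 0.48), Trim24 (-0.20 against 0.90) and Gpt2 (-0.25 against 0.54) pointed in opposite directions at the 2 times.

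It was negative for 15: Acod1 (-3.09), Sult5a1 (-2.61), Fam167a (-2.52), Timd4 (-2.27), Igfbp2 (-2.19), Folr2 (-1.81), Cfp (-1.14), Clec4f (-1.10), Cd5l (-1.04), Ctsc (-0.98), the sinusoidal lectin Clec4g (-0.77), Hpx (-0.70), the Fc receptor Fcgr2b (-0.58), Rplp1 (-0.57) and Rps15a (-0.57). Of these, Timd4, Folr2, Clec4f, Cd5l and Cfp are expressed by macrophages. Kupffer cell markers were lower at 5 months only, and those of monocyte-derived and lipid-associated macrophages at both times. Groups of 3 libraries were not tested for single outlying samples, and the causes of these differences were not tested.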

How the results depend on the processing

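The 5-month fit called 2602 genes (1258 higher and 1344 lower). With a fold change of at least 1.3 added, 750 of the calls were higher. Summing WT replicates 2 and 3 left 1672 (798 and 874). Leaving out 1 library at a time gave 1593 to 3078 genes, 768 to 1484 higher and 821 to 1594 lower, lowest without WT replicates 2 or 3; no threshold, normalization or filter moved the total by over 1.5 times. The difference between times was called for 238 genes, for 573 by DESeq2, for 793 without a filter, and for 83 to 567 when 1 library was left out.

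Every median of the 9 main lists kept its sign under all alternatives run. With library size alone it was 0.25 for the circadian clock, 0.54 for the glucocorticoid response, -0.38 for cytosolic ribosomal proteins and 0.22 for CYP families 1 to 3, each moving by more than the spread between replicates. The glucocorticoid median was also 0.54 with at least 10 counts in every library. The CYP median was 0.46 by DESeq2, 0.46 without a filter and 0.46 with WT replicates 2 and 3 summed, each testing other members or libraries. Leaving out 1 library gave 0.28 to 0.34 for the clock, 0.47 to 0.68 for the glucocorticoid response, 0.16 to 0.39 for pericentral, 0.088 to 0.26 for periportal, 0.13 to 0.42 for male-biased and 0.25 to 0.48 for female-biased genes, -0.09 to -0.02 for the respiratory chain, -0.34 to -0.28 for cytosolic ribosomal proteins and 0.24 to 0.38 for CYP genes. The causes of these shifts were not tested.

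Of 170 named genes called, 107 were called under every alternative that tested them. Over 2644 gene values, 181 lost the call, 18 gained it and 0 changed sign with a call; the fit of all 12 libraries lost 34. Of 483 values for differences between times, 96 lost the call.

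Same-numbered WT and KO-labelled libraries did not deviate together (correlations -0.087, -0.018 and -0.088, against -0.093 to 0.114 for other pairs). With 3 libraries per group this cannot exclude a pairing by number, and the main fit used none. With the replicate block, 2303 genes were called (1099 higher, 1204 lower), 258 differed between times, and the clock, glucocorticoid and cytosolic ribosomal medians were 0.29, 0.60 and -0.31.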

Other observations

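Gene groups outside the comparisons above moved as follows, in values only. De novo lipogenesis genes counted 14 rises and 0 falls of 16 tested (median 0.68), led by the ATP citrate lyase gene Acly (229.99, 233 and 235 against 646, 861 and 547 CPM; 1.56 ± 0.15). Acute phase genes counted 1 rise and 14 falls of 22 (median -0.56), with the serine protease inhibitor gene Serpina3m (0.81 ± 0.09) the one that rose and the orosomucoid gene Orm2 (75.8, 114 and 119 against 29.99, 28.5 and 35.5 CPM) lower (-1.72 ± 0.20). Serpin genes as a family counted 6 rises and 9 falls of 30. Matrix genes counted 3 rises and 19 falls of 46, and the basement membrane collagen gene Col15a1 was the largest of the rises, at 6.89, 9.60 and 9.58 against 24.3, 35.5 and 28.1 CPM (1.75 ± 0.17). Interferon-stimulated genes counted 3 rises and 1 fall of 34, among them the antiviral Oasl1 (0.82 ± 0.10) higher and Ifi27l2a lower (-0.95 ± 0.13). Hepatokine genes counted 2 rises and 2 falls of 25. Of 7 erythroid markers Tfrc and the haem synthesis gene Alas2 (0.52 ± 0.09) rose, and no marker of dendritic cells (7 tested), platelets (3) or smooth muscle and mesothelium (5) was called by edgeR; 2 of the platelet markers had an unadjusted p under 0.05 and DESeq2 called 1 of them, against 0 by either measure for the other two types.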
